A study of Mus musculus with 2 samples.

Results

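Cycling mucin-positive cells are colon epithelial cells that held both the transcript of the goblet mucin Muc2 and transcripts of mitosis genes. They were chosen by measured values. A barcode was kept with at least 5000 unique molecular identifiers (UMIs, the count of captured transcripts) and at most 25% UMIs of mitochondrial genes. A kept barcode was a member with at least 20 Muc2 UMIs per 10000 and at least 1 UMI of at least 4 of the 8 genes Top2a, Ube2c, Cenpf, Cdc20, Ccnb1, Birc5, Nusap1 and Hmmr. This gave 491 members among 9329 kept barcodes, 150 of 5366 from a library labelled whole epithelium and 341 of 3963 from a library labelled GFP. Muc2 and the 8 mitosis genes therefore chose the cells, and their levels are given as description only.

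Mouse colon epithelium was profiled by droplet single-cell RNA sequencing, with 1 library for each of 2 groups. Mice with c-Kit-creERT2 alone, given no treatment, yielded the library labelled whole epithelium (epithelium library below). The library labelled GFP (GFP library below) was made from c-Kit-creERT2;Rosa26-mTG animals after an intraperitoneal tamoxifen injection (1 mg per 20 g body weight) and a sort for GFP, which marks cells that had an active recombinase under Kit control and their progeny. The series asks what the Kit lineage contributes to the colon epithelium. Both groups carry the c-Kit-creERT2 allele. The reporter, tamoxifen and the sort are all confined to the GFP library, so none of them can be told apart from the others. The labels used here give no age, no number of animals and no time between injection and sampling.

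Goblet cells make the mucus of the colon. Their main product, the gel-forming mucin Muc2 (ENSMUSG00000025515, GRCm38 chr7:141690340-141754693), is glycosylated in the Golgi, packed into granules and secreted with partner proteins such as Fcgbp, Clca1 and Zg16. They arise from crypt progenitors in which the transcription factor Atoh1 escapes Notch inhibition, and Spdef then drives maturation. Mature goblet cells are held to be out of the cell cycle, while secretory progenitors low in the crypt can still divide. Deep crypt secretory cells, which carry Reg4 and Kit, are a Paneth-like secretory type at the crypt base.

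Several facts of the libraries touch every value. The deposited matrices are crossed between the sample records, and each was assigned by its number of barcodes (13967 and 13575). All directions between libraries rest on that assignment. The libraries shared 60 barcode sequences, 4 of them carried by members. Members were deep, with a median of 32190 UMIs in the epithelium library and 41538 in the GFP library, against 21821 and 22268 in all kept cells. A doublet caller marked 0 and 2 kept barcodes, too few to have worked, so doublets were kept. Among members, 10 and 42 exceeded 3 times the median depth of their library. Xist, the X-inactivation RNA, and Y-linked genes separated the libraries: members had 0.402 and 879 CPM of Xist (CPM, UMIs scaled to a sum of 1000000 per class of cells), while Ddx3y stood at 39.6 CPM and at 0 UMIs. Ratios below are log2 ratios of CPM over the summed cells, with exact 95% intervals that cover counting error only. No test was made, as each group has 1 library without replicate, and a gene was called at a 2-fold difference with at least 30 UMIs in the sums compared.

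Members made up 2.80% of kept cells in the epithelium library (exact 95% interval 2.37 to 3.27%) and 8.60% in the GFP library (7.75 to 9.52%). The share of mucin-positive cells that were members was 18.6% (150 of 806) and 34.7% (341 of 982), in that order. The share of cells with at least 4 mitosis genes that were members was 13.8% (150 of 1088) and 31.3% (341 of 1089). Detection of mitosis genes depends on depth. With each cell thinned to 5000 UMIs the members fell to 52 of 5352 cells, or 0.972% (0.726 to 1.27%), and 123 of 3952 cells, or 3.11% (2.59 to 3.70%). In the thinned cells 6.35% and 11.9% of mucin-positive cells were members. The share was higher in the GFP library by each of these counts, in 1 library per group, and the intervals do not cover the spread between libraries. The libraries differ in reporter, tamoxifen, sort and sex-linked genes, and the part of each in these shares was not tested.

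**Figure D1:**
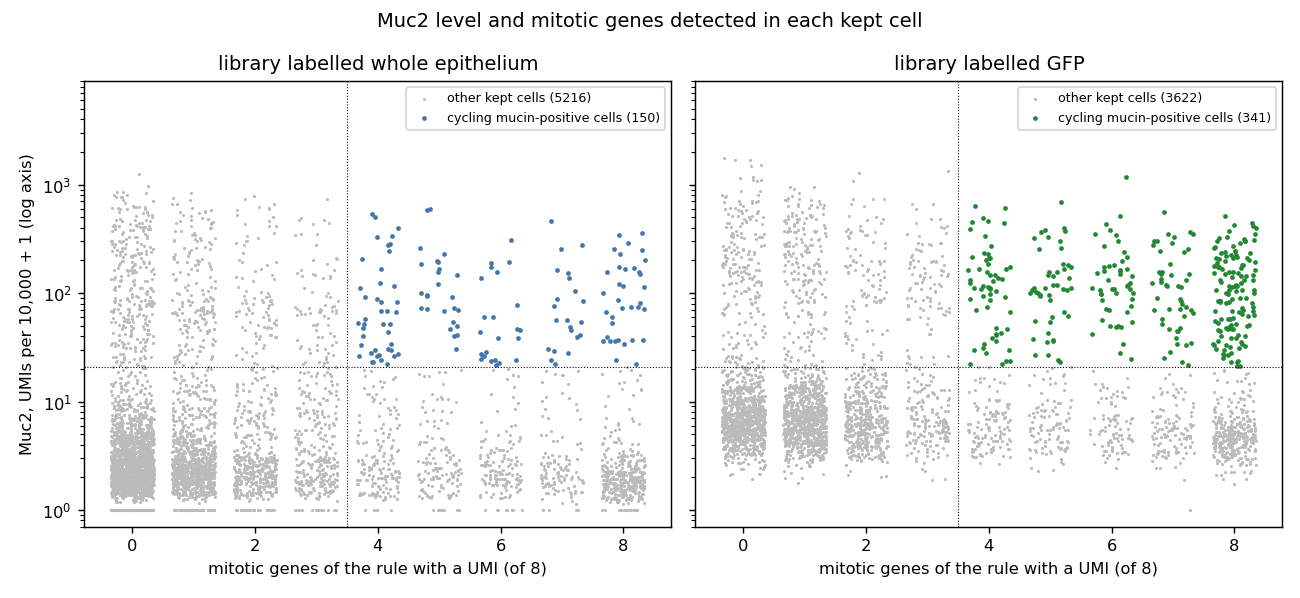
Each point is a kept cell, with the number of the 8 mitosis genes that had a UMI on the x axis (spread sideways for display) and Muc2 as UMIs per 10000 plus 1 on a log y axis, in the epithelium library and the GFP library. Coloured points are the 150 and 341 members, dotted lines mark the thresholds, and cells lie on both sides of each line without a gap.

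Cells near the thresholds are given as description. With 4 or more mitosis genes, 26 cells of the epithelium library lay just outside at 15 to 20 Muc2 UMIs per 10000, and 14 lay just inside at 20 to 25. These numbers were 25 and 16 in the GFP library. Among mucin-positive cells, 78 and 98 cells had 3 of the mitosis genes, just outside, and 43 and 59 had 4, just inside. Mki67, a proliferation marker that the rule did not use, stood at 64.9 and 56.0 CPM just outside this threshold and at 87.1 and 81.1 CPM just inside it. Members with all 8 genes, 36 and 133 cells, had 282 and 294 CPM of Mki67.

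Free RNA in the droplets was gauged in colonocyte reference cells, chosen by absorptive markers and 0 mitosis genes (1455 and 719 cells, median depth 18272 and 17798 UMIs). Their median was 3 Muc2 UMIs in the epithelium library and 11 in the GFP library, against 184.5 and 414 in members. Of these reference cells 153 and 63 were themselves mucin-positive, so medians are the better guide. Some granule transcripts lay closer to this level. Zg16 had a median of 1 UMI in both members and reference cells of the epithelium library, and of 5 UMIs in both in the GFP library. A typical member thus had no more Zg16 UMIs than a reference cell, although members were deeper.

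The label was checked on genes outside the rule. Against cycling cells with little mucin (Muc2 under 10 per 10000, at least 4 mitosis genes; 886 and 674 cells), members held more goblet and secretory transcripts. Median depth was nearly the same in the epithelium library (32190 against 32022.5 UMIs), while members were deeper in the GFP library (41538 against 32124). In this comparison 321 of 11486 measured genes (2.79%) were at least 2-fold higher in members in both libraries, and 15 (0.131%) were at least 2-fold lower. Of 20 goblet mucus and granule products, 15 were higher and 0 lower in both libraries. The median log2 ratio of the list was 4.15 in the epithelium library and 3.21 in the GFP library, beside -0.03 and -0.10 over all genes. Muc2 chose the cells, so these counts describe the choice and are no test of it.

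The factors that set secretory fate were far higher in members. Spdef (ENSMUSG00000024215, GRCm38 chr17:27714352-27728955), the goblet maturation factor, was at 143 CPM in members and 2.82 CPM in cycling mucin-low cells of the epithelium library. It was at 160 and 7.58 CPM in the GFP library. The log2 ratios were 5.67 (5.35 to 6.0) and 4.40 (4.19 to 4.63). Atoh1 (ENSMUSG00000073043, GRCm38 chr6:64729125-64731245), the master factor of the secretory lineage, had log2 ratios of 4.30 and 2.85. Gfi1, a repressor downstream of Atoh1, had 5.41 and 4.45. Of 20 measured fate and Notch genes 8 were higher in both libraries and 0 lower, among them Foxa3 (2.25 and 2.21) and Bhlha15 (2.47 and 2.70), transcription factors of secretory cells.

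Hes1, the Notch target that represses Atoh1, was lower in members without reaching 2-fold, at 226 against 338 CPM and 164 against 240 CPM. The stem cell receptor Lgr5 had intervals that include 0, with log2 ratios of -0.18 (-0.63 to 0.24) and -0.14 (-0.81 to 0.50).

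The mucus genes followed. Clca1, a mucus-processing protease, was at 308 against 3.44 CPM in the epithelium library and at 2120 against 98.9 CPM in the GFP library. Its UMIs in members of the epithelium library lay in 72 of 150 cells, with a median of 0 and 85.2% of the 1529 UMIs in 10 cells. Fcgbp, a mucus network protein, was at 488 against 17.8 CPM and at 1789 against 75.1 CPM. Agr2, the protein disulfide isomerase that folds Muc2, was at 5414 against 341 CPM and at 7062 against 888 CPM. All 3 were higher in members of both libraries. Of 19 measured genes of mucin O-glycosylation 10 were higher in both libraries, with the core enzyme gene B3gnt6 at log2 ratios of 6.09 and 4.61 and Gcnt3 at 3.12 and 2.02. Of 11 measured deep crypt secretory markers 8 were higher in both, including Reg4 (3.88 and 3.69), Mptx1 (4.33 and 4.69) and Kit (3.41 and 2.49).

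General folding genes of the endoplasmic reticulum differed little. Of 24 such genes only Ern2 was called, at 3.5 and 1.71. Ern2 encodes the stress sensor specific to mucous epithelia. The chaperone Calr had 0.23 and 0.30, and the list medians were 0.29 and 0.48.

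Other genes named by size were higher in members of both libraries. Mt3, a metallothionein, was at 61.0 against 0.828 CPM and 44.8 against 0.652 CPM. Clps, which encodes the lipase cofactor colipase, was at 59.2 against 1.72 CPM and 71.2 against 2.00 CPM. Nov, a matricellular protein gene, was at 113 against 1.63 CPM and 81.2 against 2.81 CPM. The coat protein gene Copz2 had log2 ratios of 4.90 and 4.83, and the collagen gene Col8a1 6.80 and 4.68. On the lower side the rule named 1 gene, Ly6c1, a Ly6 family surface protein, with -1.50 and -1.04.

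Markers of other cell classes were scarce apart from those of colonocytes. No member reached 20 UMIs per 10000 of the tuft, immune or stromal lists, and 2 and 3 members reached it for the enteroendocrine list. Summed over members, the tuft list stood at 11.3 and 14.6 CPM, the immune list at 20.3 and 1.14 CPM and the stromal list at 2.41 and 2.47 CPM. Most tuft genes were still detected, with a UMI in members for 10 and 13 of the 14. The same held for 18 and 8 of 18 immune genes and 3 and 5 of 11 stromal genes. The tuft factor gene Pou2f3 was at 0 UMIs in members of the epithelium library alone. The T cell genes Cd3e and Trac were at 0 in those of the GFP library alone. The collagen genes Col1a1 and Col3a1 were at 0 in both. The 20 colonocyte markers summed to a median of 74.5 UMIs per 10000 in members of the epithelium library, with a 5th to 95th percentile of 13.5 to 255. Cycling mucin-low cells there had 55.6 and mucin-positive cells without mitosis genes 30.2. The medians were 33.7, 49.5 and 52.4 in the GFP library. By these medians members were the highest of the 3 classes in the epithelium library and the lowest in the GFP library. Summed over cells, the list stood at 8230 CPM in members, 8468 in cycling mucin-low and 9073 in non-cycling mucin-positive cells of the epithelium library, and at 5048, 7894 and 10720 CPM in the GFP library, with members lowest in both. The part of free RNA or doublets in this was not tested.

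**Figure D2:**
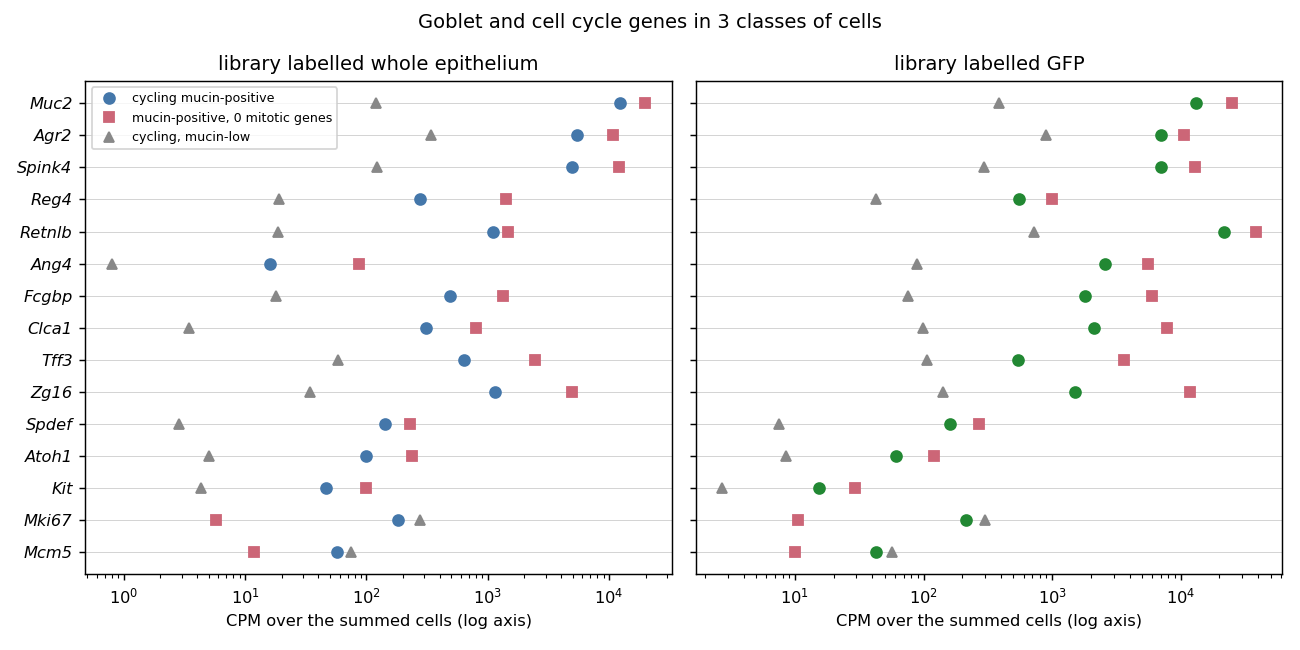
CPM on a log x axis of 15 goblet, secretory and cell cycle genes (rows) in members, in mucin-positive cells with 0 of the 8 mitosis genes and in cycling mucin-low cells, 1 panel per library. Most goblet genes place the members between the other classes, as for Tff3 at 642 CPM between 57.8 and 2473 CPM, while Mki67 sits near the cycling mucin-low cells.

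The next comparison set members beside mucin-positive cells with 0 of the 8 mitosis genes (299 and 218 cells). It describes how barcodes with Muc2 and mitotic transcripts differ from those with Muc2 and no such transcripts. A barcode that held a goblet cell and a cycling cell together would also meet the rule. The part of such doublets in the differences between classes was not tested. The cells with 0 mitosis genes were shallower, with medians of 19343 and 17212 UMIs, and 0 detected genes is easier to meet at low depth. Here 593 of 10338 measured genes (5.74%) were at least 2-fold higher in members in both libraries and 84 (0.813%) lower. The median gene was shifted by 0.16 and 0.21, and with ratios centred on it the counts were 435 higher and 170 lower. List medians below are read beside that shift.

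Cell cycle genes outside the rule were higher nearly throughout. Of 50 G2 and mitosis genes 47 were higher in both libraries, with list medians of 4.05 and 3.70. The other 3, Bub3, Pttg1 and Tubb4b, were above 0 but under 2-fold. Mki67 (ENSMUSG00000031004) was at 182 CPM in members and 5.71 CPM in non-cycling cells of the epithelium library, and at 214 and 10.5 CPM in the GFP library. Ckap2l, a spindle protein gene, was at 24.8 against 0.336 CPM and 28.5 against 0.500 CPM. Plk1, the mitotic kinase, was at 42.1 against 1.01 CPM and 45.1 against 1.25 CPM. Aspm (spindle poles), Knl1 (kinetochore), Cit (cytokinesis), Tacc3 (spindle microtubules) and the kinase gene Pbk were also among the 8 named by size, with log2 ratios between 4.29 and 7.16.

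S phase genes were higher too, by less. Of 28, 25 were higher in both libraries, with medians of 2.08 and 1.98. Mcm5, a subunit of the replicative helicase, was at 57.6 against 11.9 CPM and 42.6 against 10.0 CPM. Rrm2, the regulated subunit of ribonucleotide reductase, had log2 ratios of 3.47 and 3.21, and the sliding clamp gene Pcna 1.39 and 1.28. Slbp, Ung and Ccne2 were not called in both. The classes were chosen for mitosis genes present and absent, so the counts of both cell cycle lists describe that choice and are no test.

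Promoters of these genes are shown because the lists moved as groups and are known for different elements: the CHR element TTTGAA with CCAAT boxes at mitosis genes, and E2F-type sites at S phase genes. Windows run from 250 bases before to 50 after a start, from RefSeq on GRCm38.p6, 5′ to 3′ on the gene's strand, and both strands were searched. Capitals mark matches of TTTGAA, of CCAAT, and of the E2F-type words TTTCCCGC, TTTGGCGC and TTTCGCGC or their reverse complements, with overlapping matches run together. Plk1 (chr7:122159185-122159484, plus strand) has 1 TTTGAA and 1 CCAAT. Mki67 (chr7:135716330-135716629, minus strand) has 2 and 3. Mcm6 (chr1:128359656-128359955, minus strand), a helicase subunit gene of the S phase list, has 0 TTTGAA, 2 CCAAT and 3 E2F-type matches.
Plk1: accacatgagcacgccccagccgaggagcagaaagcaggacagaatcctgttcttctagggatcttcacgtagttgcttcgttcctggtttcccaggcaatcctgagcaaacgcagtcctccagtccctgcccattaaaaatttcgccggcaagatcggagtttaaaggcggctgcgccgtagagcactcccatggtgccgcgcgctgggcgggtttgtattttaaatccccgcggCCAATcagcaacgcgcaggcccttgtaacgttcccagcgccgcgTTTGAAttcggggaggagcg
Mki67: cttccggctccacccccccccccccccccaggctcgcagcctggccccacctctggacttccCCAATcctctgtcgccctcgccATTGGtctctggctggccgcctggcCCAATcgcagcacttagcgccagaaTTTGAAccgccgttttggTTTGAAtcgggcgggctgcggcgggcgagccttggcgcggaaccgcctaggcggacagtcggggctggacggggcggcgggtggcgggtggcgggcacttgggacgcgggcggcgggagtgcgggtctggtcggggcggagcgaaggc
Mcm6: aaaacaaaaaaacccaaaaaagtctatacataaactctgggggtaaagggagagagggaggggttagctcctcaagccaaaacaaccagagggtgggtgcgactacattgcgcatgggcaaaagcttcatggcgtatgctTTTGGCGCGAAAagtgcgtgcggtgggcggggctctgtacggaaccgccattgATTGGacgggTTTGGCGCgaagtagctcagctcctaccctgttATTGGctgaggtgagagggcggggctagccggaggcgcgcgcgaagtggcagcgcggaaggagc

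Of 50 G2 and mitosis genes, 40 matched 43 windows. TTTGAA was in 33 of these (76.7%), against 17.9% of all 32851 windows, and TTTGAA together with CCAAT in 29 (67.4%) against 6.95%. Of 28 S phase genes, 23 matched 26 windows, of which 3 (11.5%) held TTTGAA. An E2F-type word was in 10 of the S phase windows (38.5%) and 2 of the G2 and mitosis windows (4.65%), against 1.85% of all. For comparison, TTTGAA was in 2 of 17 windows (11.8%) of the goblet product list. Among lists without mitosis genes its share was highest in the tuft list, with 4 of 11 windows (36.4%). CCAAT, with or without TTTGAA, was in 34 of the G2 and mitosis windows (79.1%), against 37.4% of all. It was as common in the folding list, with 17 of 21 windows (81.0%). These are matches of letters in a window and say nothing of binding in these cells.

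Genes that restrain the cell cycle were called in part. Of 21 measured inhibitor and exit genes 5 were higher in both libraries: Cdkn2c, Cdkn2d, Cdk4, E2f7 and E2f8. Cdk4 is a G1 kinase, and E2f7 and E2f8 are repressors that cycling cells themselves express. Cdkn1a, which encodes the inhibitor p21, was at 118 against 203 CPM in the epithelium library and at 64.1 against 183 CPM in the GFP library, 2-fold lower in the latter alone. Cdkn1b, encoding p27, had log2 ratios of 0.35 and 0.33.

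Mucus and granule products were lower in members than in non-cycling mucin-positive cells. All 20 had a log2 ratio below 0 in both libraries on summed UMIs, 6 were at least 2-fold lower in both, and the medians were -1.15 and -0.98. Zg16 (ENSMUSG00000049350, GRCm38 chr7:127050156-127087328), a lectin that binds bacteria, was at 1139 against 4914 CPM and 1514 against 11702 CPM. The log2 ratios were -2.11 (-2.15 to -2.07) and -2.95 (-2.97 to -2.93). Tff3 (ENSMUSG00000024029), the trefoil peptide of mature goblet cells, was at 642 against 2473 CPM and 541 against 3604 CPM. Per cell its median was 1.38 UMIs per 10000 in members and 1.24 in non-cycling cells of the epithelium library, where 10 cells held 57.2% and 46.4% of its UMIs, and 1.26 and 3.13 in the GFP library. Fcgbp had log2 ratios of -1.45 and -1.74 and Clca1 -1.37 and -1.89, and Bcas1 and Capn9 completed the 6.

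On summed UMIs Agr2 and Muc2 differed less. Agr2 had -0.99 and -0.58, and Spink4 -1.28 and -0.86. Muc2 itself, which the rule bounds from below in both classes, stood at 12289 against 19874 CPM and 13049 against 24895 CPM. Medians per cell gave another order in the epithelium library. Agr2 there had 29.7 UMIs per 10000 in members against 92.8 in non-cycling cells, and Spink4 23.3 against 96.4. In the GFP library these medians were 57.0 against 83.5 and 53.4 against 82.2. The Zg16 UMIs lay in few cells. The 10 cells with the most Zg16 held 66.3% and 53.0% of the members' Zg16 UMIs, and 58.4% and 50.8% of those of the non-cycling class. The median level of Zg16 was 0.73 UMIs per 10000 in members and 0.68 in non-cycling cells of the epithelium library, and 1.31 and 3.97 in the GFP library. Cycling mucin-low cells of the GFP library had a median of 1.30, and its reference cells with little Muc2 had 385 CPM. The medians of the GFP library are thus near the level of cells with little Muc2, and their difference is not read as expression. In the epithelium library the medians were thus close, while the upper quartiles were 6.56 and 12.9 and the highest cells 234 and 951 per 10000. Over the alternatives run, the Zg16 ratio ran from -3.36 to -2.00 there and from -3.16 to -2.72 in the GFP library. The value of -2.00 came with equal weight per cell, which is not a ratio of summed UMIs. The Clca1 ratio reached -3.82 in the epithelium library after thinning. Gene ratios after thinning compare classes chosen anew on the thinned cells, with 52 and 123 members.

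Other genes named for the lowest ratios were Slpi, a secreted protease inhibitor (-3.47 and -2.33), Spink1, a trypsin inhibitor (-2.43 and -2.71), and 3 genes of membrane traffic. Rab27a, a small GTPase of secretory granules, had -1.48 and -1.45. Sybu, a kinesin adaptor, had -1.49 and -1.58, and Fer1l6, of the ferlin family, had -1.45 and -1.71.

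Defence genes did not move as a group. Of 8 measured, Lpo was higher in members of both libraries (1.26 and 1.12) and Ang4 (-2.44 and -1.12) and Itln1 (-1.46 and -1.40) lower, while Retnlb had -0.40 and -0.82. In the GFP library the Lpo ratio was 0.64 after thinning, and the Ang4 ratio was -0.62 after thinning, -0.59 with equal weight per cell and -0.93 without the deepest barcodes, all under 2-fold. Of 18 measured O-glycosylation genes Gcnt1 (-2.13 and -1.11) and St3gal1 (-1.68 and -1.31) were lower in both libraries. Of 24 folding genes 0 were called, with list medians of -0.35 and -0.19.

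Hormone genes were called in both directions on few cells. Of 8 measured enteroendocrine genes Pyy, Gcg and Insl5 were higher and Chga, Chgb and Tph1 lower in members of both libraries. Of the 794 Pyy UMIs in members of the epithelium library, 541 lay in 1 cell, and the Pyy ratios (4.04 and 1.19) reversed under other thresholds.

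Spdef and Atoh1 stood between the other classes. Spdef was at 143 against 230 CPM and 160 against 268 CPM, and Atoh1 at 99.8 against 237 CPM and 61.2 against 121 CPM, so neither was 2-fold lower in both libraries. Gfi1 was, with -1.20 and -1.09. Notch1, the receptor, was higher in members at 26.0 against 5.21 CPM and 26.1 against 9.00 CPM. Its target Hes1 had 1.31 and 1.07 and the progenitor factor Sox4 1.64 and 1.33. These 3 were the genes called higher among 19 measured of the fate and Notch list.

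Of 19 measured stem cell and Wnt genes 4 were higher in both libraries: Lgr5, Smoc2, Cdca7 and Myb. Lgr5 rested on few UMIs, with 10.3 against 1.51 CPM and 2.14 against 0.750 CPM, and its interval in the GFP library ran from -0.17 to 3.86.

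Of 10 measured deep crypt markers 2, Mptx1 and Egf, were at least 2-fold lower in both libraries, with list medians of -1.28 and -0.86. Mptx1, a pentraxin of deep crypt cells, was at 2886 against 22861 CPM in the epithelium library and 10093 against 22242 CPM in the GFP library. Leaving out cells over 3 times the median depth ended its 2-fold call in the GFP library (-0.92), as did equal weight per cell (-0.76) and thinning (-0.56). Reg4 had -2.36 and -0.86. Kit (ENSMUSG00000005672, GRCm38 chr5:75574916-75656722), the receptor whose locus drives the recombinase, was at 46.1 against 98.3 CPM and 15.4 against 29.3 CPM, with log2 ratios of -1.09 (-1.32 to -0.87) and -0.93 (-1.26 to -0.60).

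The classes chosen at full depth were thinned to 5000 UMIs per cell. Kit then had a UMI in 17.3% of members, 34.8% of non-cycling cells and 4.81% of colonocyte reference cells of the epithelium library. These shares were 9.09%, 12.8% and 1.39% in the GFP library. Unthinned, they were 58.0%, 68.9% and 9.07% at median depths of 32190, 19343 and 18272 UMIs, and 40.8%, 31.2% and 3.48% at 41538, 17212 and 17798 UMIs. The unthinned order of the GFP library goes against the CPM and is not read.

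A split by UMIs of single genes was chosen after the values had been seen. Among thinned mucin-positive cells of the epithelium library, 8 of 245 with a Kit UMI were members (3.27%, exact 95% interval 1.42 to 6.33%), against 44 of 574 without (7.67%, 5.62 to 10.2%). In the GFP library the shares were 8.53% (4.33 to 14.7%) and 12.3% (10.3 to 14.7%). For Reg4 they were 3.23% with and 8.58% without a UMI in the epithelium library, and 11.7% and 11.9% in the GFP library. For Atoh1 they were 4.50% and 7.94%, then 9.23% and 13.1%, and for Spdef 6.33% and 6.36%, then 10.1% and 14.0%. These shares describe cells of 1 library per group, and the intervals cover counting error only. No gene is singled out by them.

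Against non-cycling mucin-positive cells, genes of class II antigen presentation were called in the epithelium library alone. Of 7 class II genes 6 were at least 2-fold higher in members of the epithelium library (8.87% of all genes were), with Cd74 at 360 against 103 CPM. In the GFP library 0 were (10.3% of all genes), with Cd74 at 704 against 613 CPM. The difference between libraries was not tested. Of 20 colonocyte markers 14 were lower in members of the GFP library (3.04% of all genes), such as Saa1 at 120 against 767 CPM, and 1 in the epithelium library (2.69%). Against cycling mucin-low cells, class II genes were not higher as a group. In the epithelium library 2 of 7 had a ratio above 0 and 5 below, with a median of -0.14. In the GFP library 0 were above and 7 below, with a median of -0.63.

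**Figure D3:**
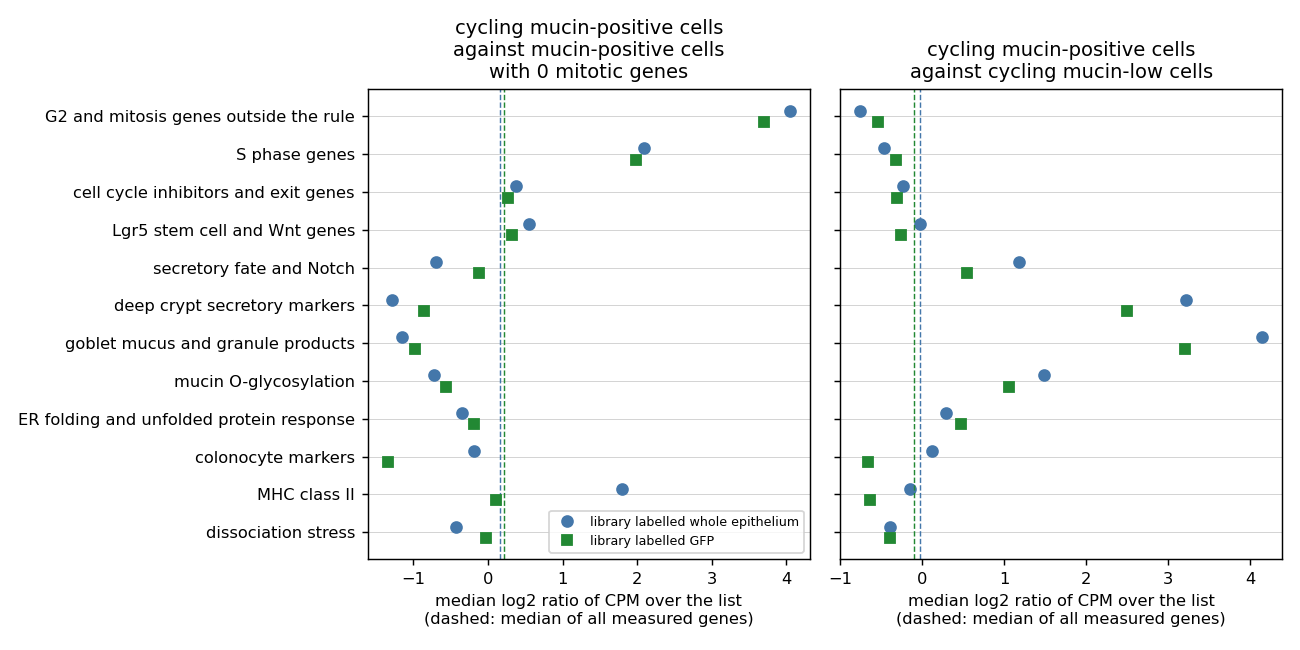
Median log2 ratio over each of 12 gene lists (x axis) for members against mucin-positive cells with 0 mitosis genes (left) and against cycling mucin-low cells (right). Circles are the epithelium library, squares the GFP library, and dashed lines the medians of all measured genes. Cell cycle lists lie far to the right in the left panel, at 4.05 and 3.70 for G2 and mitosis, and goblet lists far to the right in the right panel, at 4.15 and 3.21.

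Set against cycling mucin-low cells, the cell cycle genes of members were somewhat lower without reaching 2-fold. All 50 G2 and mitosis genes had a ratio below 0 in both libraries, with medians of -0.76 and -0.53, and 0 were 2-fold lower in both. The part of doublets in this was not tested. S phase medians were -0.46 and -0.31. Mki67 was at 182 against 274 CPM and 214 against 301 CPM. Thinned to 5000 UMIs, Mki67 had a UMI in 52.0% of members against 63.2% of cycling mucin-low cells, and in 56.6% against 68.0%, with 2.61% and 4.17% in colonocyte reference cells. Unthinned, 86.7% and 92.4% of members had a UMI.

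Members varied by more than 1 order of magnitude in Muc2. The lowest, median and highest level was 20.7, 69.5 and 591 UMIs per 10000 in the epithelium library, and 20.3, 107 and 1170 in the GFP library. Along ranges of Muc2 (20 to 50, 50 to 100, 100 to 200, and 200 and more UMIs per 10000; 56, 41, 29 and 24 cells, then 80, 75, 108 and 78), Spdef was higher in each range than in the one below. It stood at 42.0, 106, 205 and 308 CPM in the epithelium library and at 76.3, 125, 171 and 295 CPM in the GFP library. Spink4, a secreted peptide of goblet cells, went from 3544 to 8422 CPM and from 4040 to 11332 CPM between the lowest and highest range. Mki67 stayed between 156 and 216 CPM and between 180 and 237 CPM.

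Tff3, Zg16 and Clca1 did not follow Muc2 in the epithelium library. Zg16 stood at 1237, 1554, 1416 and 79.3 CPM along the ranges there, and Tff3 at 922, 823, 457 and 98.6 CPM. Clca1 was at 362 CPM in the lowest and 35.4 CPM in the highest range. The 10 cells with the most UMIs held 66.3% of Zg16, 57.2% of Tff3 and 85.2% of Clca1 in these members, so single cells weigh on each range. In the GFP library Clca1 went from 958 to 2393 CPM and Zg16 from 617 to 2225 CPM, while Tff3 stayed between 435 and 651 CPM. Members with the most Muc2 were thus low in Tff3, Zg16 and Clca1 in the epithelium library, on 24 cells, which was not seen in the GFP library. The difference between libraries was not tested.

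Kit and the colonocyte list moved in opposite directions along the same ranges of the epithelium library. Kit stood at 24.3, 29.8, 52.2 and 101 CPM and the colonocyte markers at 11817, 9601, 4401 and 4260 CPM. In the GFP library Kit was at 11.8 and 25.4 CPM in the lowest and highest range, and the colonocyte markers at 4824 and 4137 CPM. Class II genes there went from 2040 to 581 CPM. Median depth was 25150.5 UMIs in the lowest and 39098.5 in the highest range of the epithelium library, and 47116.5 and 37714 in the other, so depth moved in opposite directions.

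**Figure D4:**
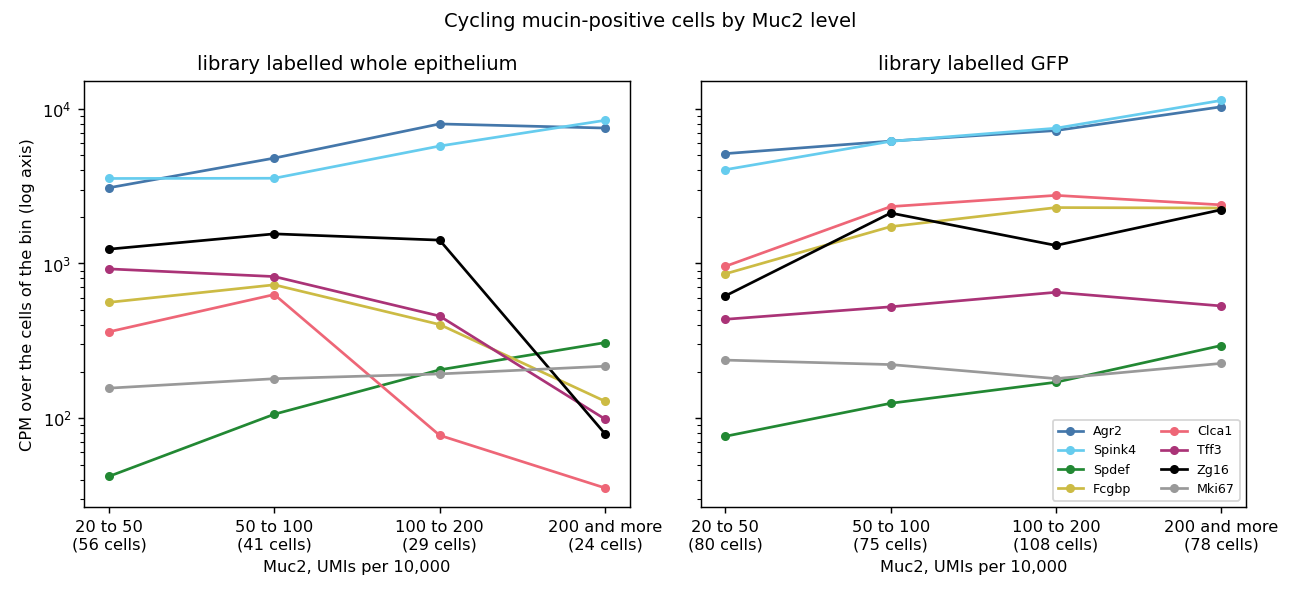
CPM on a log y axis of 8 genes over members grouped by Muc2 level (x axis, UMIs per 10000, with the number of cells), 1 panel per library; lines join the same gene. Spdef is higher at each step in both panels, and Zg16, Tff3 and Clca1 are at their lowest in the highest range of the epithelium library, at 79.3, 98.6 and 35.4 CPM.

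By the number of mitosis genes detected (4 or 5, 6 or 7, and 8), the G2 and mitosis list stood at 3289, 5397 and 8430 CPM in the epithelium library and at 3332, 5118 and 8058 CPM in the GFP library. The number also moved with depth, whose medians were 20272, 27005 and 45616 UMIs and 29791, 40025 and 51699 UMIs. The goblet product list stood at 23667, 21247.5 and 17717 CPM and at 26821, 24854 and 24151 CPM. The cells were grouped by detected mitosis genes, so the levels of the mitosis list describe that grouping. Retnlb in the GFP library was at 21840, 20120 and 22537 CPM.

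The last comparison set the members of the libraries beside each other. Of 11210 measured genes 280 (2.5%) were at least 2-fold higher in the GFP library and 428 (3.82%) at least 2-fold lower. The libraries differ in sex-linked genes, genotype, treatment and sorting, and the part of each was not tested.

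Several defence products of goblet cells were higher in members of the GFP library. Retnlb (ENSMUSG00000022650, GRCm38 chr16:48816856-48818892), a bactericidal resistin-like protein, was at 1101 CPM in members of the epithelium library and at 21658 CPM in those of the GFP library. The log2 ratio was 4.30 (4.26 to 4.34). Per cell it ranged from 0 to 132 UMIs per 10000 around a median of 0.78 in the first, and from 5.30 to 1246 around a median of 149 in the second. These ranges overlap. The lowest member of the GFP library lay above the median of the other, but below the median of 6.75 in cycling mucin-low cells of its own library. That minimum is thus not read as expression. Reference cells differed the same way. They had a median of 0 and 18 Retnlb UMIs, against 1.5 and 613 in members, and those with little Muc2 had 14.2 and 906 CPM.

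Ang4 (ENSMUSG00000060615, GRCm38 chr14:51763878-51773590), an antimicrobial ribonuclease with close paralogs that share reads, was at 16.1 and 2567 CPM, a log2 ratio of 7.32 (7.0 to 7.65). A UMI of Ang4 was found in 23 of 150 and 332 of 341 members, but also in 593 of 674 cycling mucin-low cells of the GFP library (median depth 32124 UMIs, against 41538 in members), so the latter share is not read as expression. Reference cells there had a median of 2 Ang4 UMIs at a median depth of 17798, and 213 of 341 members exceeded their 95th percentile of 9. The goblet lectin gene Itln1 was at 2.82 and 48.6 CPM and the peroxidase gene Lpo had a ratio of 3.58. Of 9 defence genes 5 were higher and 1 lower, with a list median of 2.28 beside a median near 0 for all genes. The lower gene was Reg3b, an antibacterial lectin with a close paralog, at 5440 and 1022 CPM. Retnlb and Ang4 were also higher in the GFP library outside the members, at 1454 against 38310 CPM and 87.4 against 5564 CPM in non-cycling mucin-positive cells, so the other classes held the same direction.

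Other secretory genes were closer. Spdef was at 143 and 160 CPM, Agr2 at 5414 and 7062 CPM and Tff3 at 642 and 541 CPM. Muc2, for which both libraries had the same minimum, was at 12289 and 13049 CPM. Of 20 goblet products 2 were higher in the GFP library, Clca1 (2.78, and 5.37 after thinning) and Fcgbp (1.87). Another 2 were lower, Guca2a (-1.63) and Ccl6 (-1.05). Guca2a was also among the markers that chose the colonocyte reference cells. Clca1 and Fcgbp were higher outside the members too. Their medians in non-cycling mucin-positive cells were 0 and 5.70 UMIs per 10000 for Clca1 and 2.11 and 5.35 for Fcgbp. Colonocyte reference cells differed the same way, with medians of 0 and 3 Clca1 UMIs and of 0 and 2 Fcgbp UMIs. The deeper members had medians of 0 and 7 Clca1 UMIs and of 3 and 17 Fcgbp UMIs. In the GFP library 162 of 341 members exceeded the reference 95th percentile for Clca1, and 220 for Fcgbp. Of 20 fate and Notch genes and of 24 folding genes 0 were called in either direction. Mptx1 was higher at 1.81, and Reg4, at 278 and 549 CPM, had 0.98, which did not pass 2-fold. This ratio was 1.26 with equal weight per cell, 1.56 with Muc2 of at least 50 per 10000 and 1.56 after thinning, 1.02 without the deepest barcodes and 0.33 with at least 6 mitosis genes. In members of the epithelium library 10 cells held 83.5% of the Reg4 UMIs.

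Kit was lower in members of the GFP library, at 46.1 and 15.4 CPM (log2 ratio -1.58, -1.85 to -1.31), and Lgr5 at 10.3 and 2.14 CPM (-2.26, -2.95 to -1.60). Kit is the gene whose locus drives the recombinase, and the reporter marks descendants whether or not they still transcribe it. The part of descent in these lower values was not tested. Both genes were also lower in the GFP library outside the members. Kit was at 98.3 and 29.3 CPM in non-cycling mucin-positive cells and at 4.32 and 2.73 CPM in cycling mucin-low cells. Lgr5 was at 11.7 and 2.36 CPM in cycling mucin-low cells. In non-cycling mucin-positive cells it was at 1.51 and 0.750 CPM, on few UMIs.

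Cell cycle levels were near each other. Of 50 G2 and mitosis genes and of 28 S phase genes 0 were called, with medians of 0.08 and -0.32. S phase ratios were below 0 for 26 of 28 genes, as for Mcm5 at 57.6 and 42.6 CPM. Cdkn1a was at 118 and 64.1 CPM.

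Genes named for the largest differences outside the lists included Pla2g4c, a phospholipase gene (4.67), Dmrta2, a transcription factor gene with 0 UMIs in members of the epithelium library and a log2 ratio of at least 4.69 against the floor of 3 UMIs, and Ido1, a tryptophan-degrading enzyme, at 54.7 and 0.802 CPM. The interferon-inducible Ifi27l2b was at 374 and 21.1 CPM. The imprinted RNA Meg3 was at 36.4 CPM and 0 UMIs, and Pnp2, a purine salvage gene with a near-identical neighbour, at 21.3 and 0.0668 CPM. Gt(ROSA)26Sor, transcribed from the reporter's locus, was at 29.0 and 1.20 CPM. Of 20 colonocyte markers 8 were lower, such as Slc37a2 (-3.39), and of 19 dissociation stress genes 5 were lower, such as Atf3 (-1.57). Of 7 class II genes 3 were higher, H2-Aa, H2-Ab1 and H2-DMb1. The median mitochondrial share of members was 10.3% and 6.41%.

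**Figure D5:**
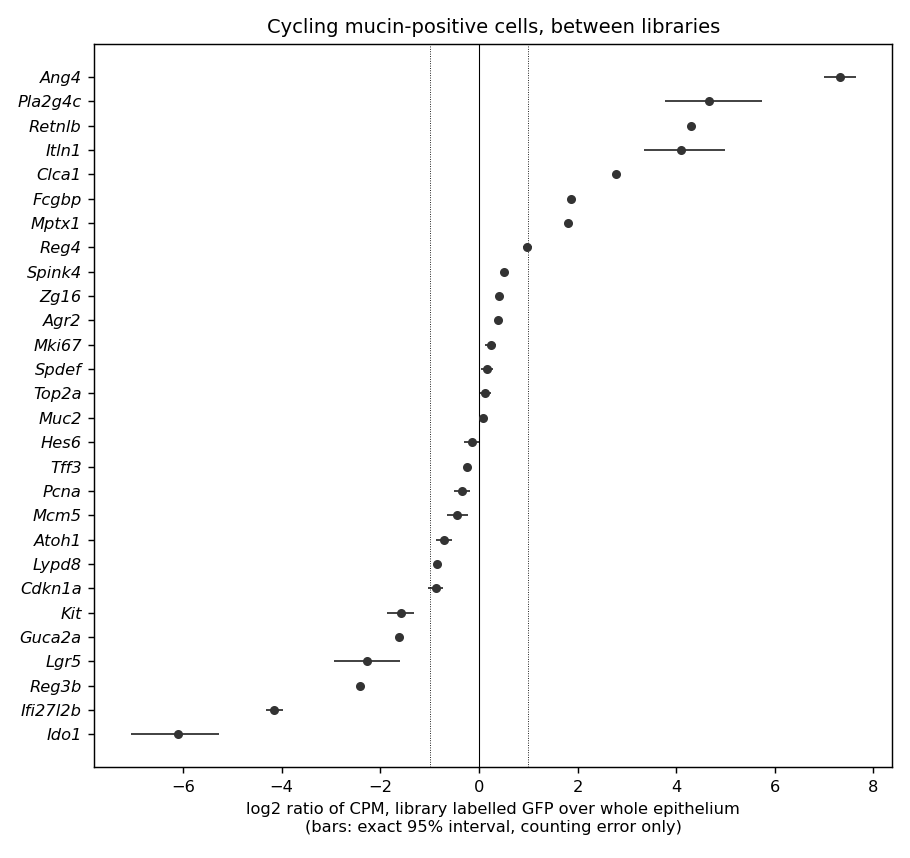
Log2 ratio of CPM in members, GFP library over epithelium library, for 28 genes ordered by ratio; bars are exact 95% intervals for counting error only, and dotted lines mark 2-fold. Ang4 and Retnlb stand at 7.32 and 4.30, Muc2, Spdef and Top2a near 0, and Kit at -1.58.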

How the data were processed

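Droplet libraries of the 3' v2 chemistry were made per the labels' protocols. The deposited matrices hold raw UMI counts per gene and barcode (31053 genes; 13967 barcodes with 164185392 UMIs for whole epithelium, 13575 with 150348319 for GFP). Cell Ranger 2.1.1 and the mm10 build are named per the submitters' processing notes, while the matrix headers give 3.1.0. Each matrix was joined to the barcode file of the same length, which crosses the sample records.

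Counts were summed over cells, scaled to CPM and compared as log2 ratios with exact conditional binomial 95% intervals. Shares have Clopper-Pearson intervals. Both cover counting error only. A gene was called at a log2 ratio of at least 1 with at least 30 UMIs, in both libraries for comparisons between classes, and a sum of 0 was set to 3 UMIs. Rule genes were left out of counts. With 1 library per group no test was made. Thinning drew 5000 UMIs per cell with seed 1. For gene ratios, counts of genes, shares of members and the split by single genes, the classes were chosen anew on the thinned cells. For shares of cells of a class with a UMI, the classes were those chosen at full depth. Doublets were scored with Scrublet in scanpy 1.11.5 and none were removed. Gene positions are from GENCODE (30934 of 31053 IDs matched).

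Named genes were a fixed set, the 8 highest and 8 lowest called ratios with at least 100 UMIs per comparison, and in each list the most abundant and extreme genes. Other list members were named after their values were seen. Lists shared some genes, such as Atoh1, Spink4 and Lypd8, and these are counted in each list that holds them. Members and lists were chosen with earlier results of these data known. Alternatives changed the Muc2, mitosis gene, mitochondrial and UMI minimums, the weight per cell, the centring, the deepest barcodes and the depth. The code was tested on simulated counts. Python 3.11.15, numpy 2.4.6, scipy 1.17.1 and pandas 2.3.3 were used.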

Additional observations from a re-analysis of the deposited data

Results flagged for a closer look

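Against cycling mucin-low cells, 3 hormone genes of enteroendocrine cells had ratios past 2-fold in opposite directions in the 2 libraries (labelled whole epithelium and GFP). The difference between libraries was not tested. Gcg, which encodes proglucagon, had a log2 ratio of -1.326 in the epithelium library and 1.713 in the GFP library. Cck, encoding cholecystokinin, had -1.712 and 1.149. Chga, encoding the granule protein chromogranin A, had -1.298 and 1.446.

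The UMIs lay in few cells. Members of the GFP library held 182 Gcg UMIs in 47 cells, 126 of them in 3 cells, and 113 Chga UMIs, 77 of them in 1 cell. Their 23 Cck UMIs lay in 8 cells, with 14 in 1 cell. Members of the epithelium library held 36 Gcg UMIs in 14 cells, 2 Cck UMIs and 23 Chga UMIs in 16 cells.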

How the results depend on the processing

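No paired analysis was possible because each group has 1 library, and no replicate could be left out for the same reason. Members were 2.80% and 8.60% of kept cells (whole epithelium, then GFP), a difference of 5.81 percentage points. With Muc2 of at least 50 per 10000 the shares were 1.75% and 6.59%, and with at least 100 they were 0.988% and 4.69% (difference 3.71). With at least 3 mitosis genes they were 4.25% and 11.1% (6.83), and with at least 6 they were 1.51% and 5.90% (4.40). With at most 10% mitochondrial UMIs they were 2.17% and 12.6% (10.4), and thinned they were 0.972% and 3.11% (2.14). The library labelled GFP had the higher share under each of these. Between libraries, 280 higher and 428 lower genes became 125 and 229 with at least 100 UMIs, 476 and 735 with at least 10, and 178 and 197 after thinning; fewer or more genes were tested by construction. Against non-cycling cells, 593 higher genes became 337 with at least 100 UMIs and 180 after thinning. The 84 lower became 170 after centring and 147 with at least 6 mitosis genes. Classes were chosen anew on thinned cells, so counts after thinning do not compare the same cells at equal depth. Against cycling mucin-low cells, 321 higher became 212 with at least 100 UMIs and 98 after thinning. The 15 lower became 7 after centring, 24 with equal weight per cell, 1 with at least 100 UMIs, 32 with at least 10, 47 with Muc2 of at least 50 per 10000 and 34 after thinning. Pyy reversed most often, and the cause was not tested. Between libraries it became 0.14 with equal weight, 3.23 with Muc2 of at least 50 per 10000 and 0.41 after thinning. Against non-cycling cells it became -0.55 in whole epithelium with that Muc2 minimum, and in GFP -0.78 with at least 6 mitosis genes and -0.29 after thinning. Against cycling mucin-low cells it became -3.23 in whole epithelium with that Muc2 minimum. After thinning, Dll1 became 0.12 and Car4 0.028 against non-cycling cells of whole epithelium. Of named gene values past 2-fold, 29 of 33 between libraries, 83 of 101 against non-cycling and 51 of 62 against cycling mucin-low cells stayed past it in the same direction in each alternative that gave them a value. Muc2 of at least 100, at least 3 mitosis genes and at most 10% mitochondrial UMIs were run for the shares alone, and some genes, such as Kit between libraries, had too few UMIs for a value after thinning.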
